A study of Mus musculus with 8 samples.

Results

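Blood vessels of brown adipose tissue, a heat-producing fat depot, are wrapped by mural cells: smooth muscle cells around arteries and larger veins, and pericytes around capillaries. The 10 genes described here mark those cells. They were chosen by name out of 23372 genes with a symbol, 5 for the contractile and cytoskeletal apparatus of smooth muscle (Acta2, Tagln, Myh11, Cnn1 and Des) and 5 for mural cells and pericytes (Rgs5, Notch3, Pdgfrb, Mcam and Abcc9). Where a symbol had several transcript rows, the row with the highest total over the 8 libraries stood for the gene. All 10 had enough counts to be tested.

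Total RNA of brown adipose tissue was sequenced from 4 KO and 4 control mice of the C57BL/6 N background, all 10 weeks old. The KO mice (libraries 512, 513, 515 and 516) had a knock-out of Lsd1, a histone demethylase encoded by Kdm1a, made by crossing floxed mice to Ucp1-Cre mice. The control mice (libraries 511, 514, 517 and 518) were Lsd1 floxed, so both groups carried the floxed gene and the Cre transgene went with the knock-out. Ucp1-Cre is active in brown adipocytes, which are not mural cells, so the comparison asks whether transcripts of the vessel wall change after a deletion aimed at fat cells. Deletion and Cre cannot be told apart. The labels do not say more on how the mice were kept or paired, and p-values here reflect only how far these samples spread.

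Mural cells are recruited to new vessels by platelet-derived growth factor from the endothelium, which acts on the receptor encoded by Pdgfrb, and their smooth muscle identity is kept by Notch3, a receptor for ligands on neighbouring endothelial cells. Their contractile genes are driven by serum response factor with its coactivator myocardin, which act at CArG boxes. In fat depots, cells along the vessel wall that carry some of these markers are also described as a source of new adipocytes. In bulk tissue, fewer cells of a type and less RNA per cell cannot be told apart.

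Libraries held 33011022 to 38756920 counts over all rows. Levels are given as CPM, counts scaled to a common depth with TMM factors. Log2 fold changes are KO over control, and SE is their approximate standard error. Kdm1a had 12.2 to 13.96 CPM in KO libraries and 33.3 to 36.9 CPM in control libraries. Its log2 fold change was -1.43 (edgeR adjusted p = 2.66e-05, SE 0.0743), although the exons that were deleted and those that were kept were not separated. Of 14178 genes tested by edgeR's quasi-likelihood test, 15.4% were higher in KO tissue and 18.9% lower at an adjusted p under 0.05. The summed level of 5 brown adipocyte markers was 11365 to 12916 CPM in KO libraries and 17226 to 23514 CPM in control libraries, without overlap. These markers were thus present in both groups and lower in KO tissue. Their log2 fold changes ran from -1.70 to -0.17, with 2 lower and 0 higher by edgeR.

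Over all tested genes 34.4% were called, 15.4% higher and 18.9% lower in KO tissue. Of the 10 members, 1 rose, 0 fell and 9 did not pass the threshold. The count higher was thus near the share over all genes, and a difference from these shares was not tested. The edgeR test also found 0 lower members at an unadjusted p under 0.05, and DESeq2 and limma-voom called 0 lower. Notch3 was the member that passed, with a log2 fold change of 0.31, and it was also the only member whose KO and control libraries did not overlap, which 35.5% of all tested genes did. All 10 log2 fold changes were above 0, between 0.07 and 1.04, as were 48.7% of those of all tested genes. Their median was 0.15, and that of all tested genes was -0.01. The scaling between libraries moved this level. With library sizes alone the median of all genes shifted up by 0.199, the members' median was 0.35 and 6 of the 10 were higher. The shares of all genes called under each setting were 16% of genes higher and 17.6% lower with RLE factors, 20.6% and 11.5% with upper quartile factors (3 members higher), 28.8% and 6.56% with library sizes alone, 11.6% and 14.3% with no filter, 15.2% and 18.5% with summed rows, 9.91% and 12.7% with a skeletal muscle score as a covariate, 18% and 20.1% by DESeq2 (2 members higher) and 17.4% and 20.1% by limma-voom (2 members higher). Without KO 512, 513, 515 or 516 those shares were 13.2% and 16%, 10.7% and 13.3%, 11% and 14.3%, and 10.9% and 13.7%. Without control 511, 514, 517 or 518 they were 14.7% and 18.5%, 14.6% and 17%, 13.1% and 16.8%, and 15.8% and 16%, and 0 to 2 members were higher with 1 library left out. The members' median lay 0.163 above that of all genes with TMM factors and 0.165 above it with library sizes alone. Scaling moves all genes nearly alike, so this difference could hardly change between those settings. With 1 library left out it ran from 0.096 (without control 518) to 0.221 (without control 517).

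**Figure D1:**
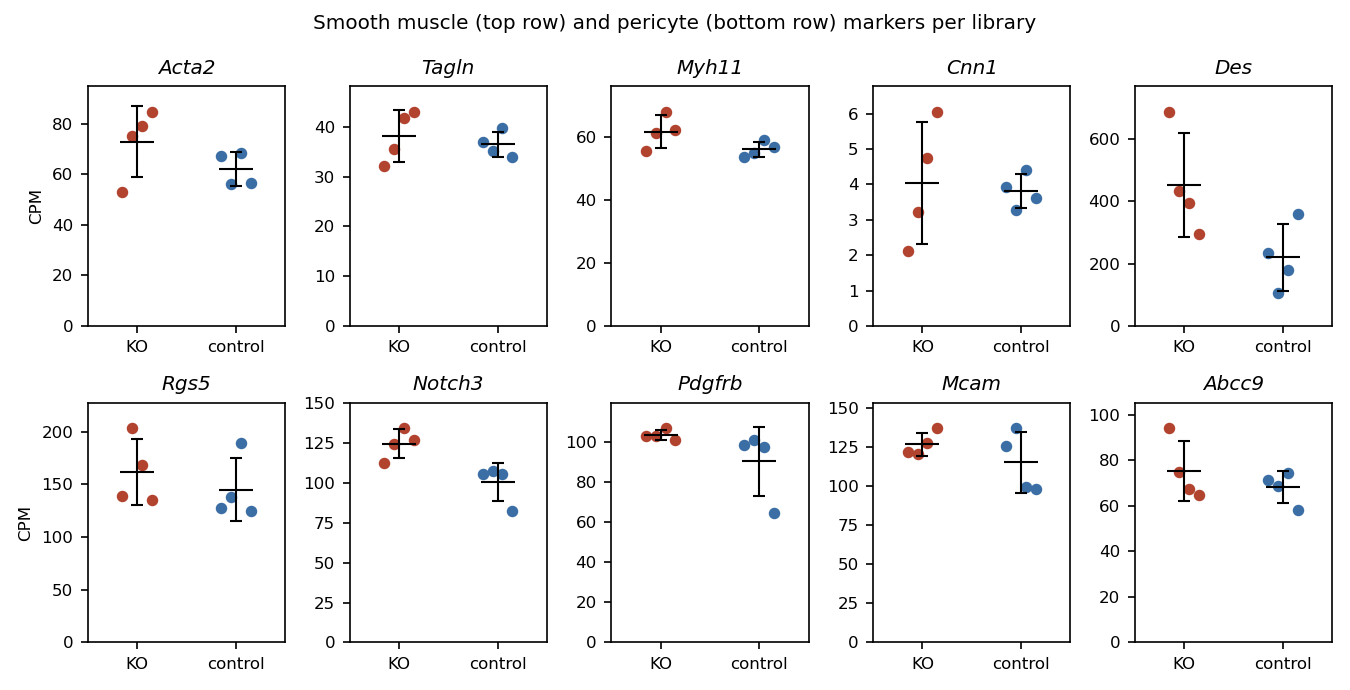
CPM of the 10 markers in each library, KO (red) left of control (blue), with the mean and SD of 4 libraries. The axes start at 0. Notch3 is the panel in which the groups are apart, and in the Des panel KO library 512 stands at 686 CPM.

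The upstream sequences of Notch3 and Des are shown because Notch3 passed the test used here and Des passed the one in the authors' deposited table. Each is the part from 250 to 11 bases before the RefSeq start on GRCm38.p6, the build of mm10, and 7 of the 10 members had an entry. The counted rows of Des and Notch3 start elsewhere, at 75360344 and 32166852, farther downstream of these windows. Capitals mark E boxes (CANNTG, the site of muscle bHLH factors and others) and GC boxes (GGGCGG, read on both strands as GGGCGG or CCGCCC), which did not overlap each other.
Des, chr1:75360042-75360281, plus strand: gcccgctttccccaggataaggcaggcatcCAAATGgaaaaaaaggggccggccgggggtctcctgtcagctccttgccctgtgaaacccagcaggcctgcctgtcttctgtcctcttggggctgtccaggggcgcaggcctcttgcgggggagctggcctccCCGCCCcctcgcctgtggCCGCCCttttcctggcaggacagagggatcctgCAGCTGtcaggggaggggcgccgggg
Notch3, chr17:32166901-32167140, minus strand: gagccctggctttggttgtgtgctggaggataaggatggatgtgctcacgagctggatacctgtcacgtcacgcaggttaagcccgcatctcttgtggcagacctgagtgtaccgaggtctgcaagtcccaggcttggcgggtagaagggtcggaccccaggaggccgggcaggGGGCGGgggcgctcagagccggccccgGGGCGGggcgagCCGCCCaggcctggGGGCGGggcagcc

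The Des window held 2 E boxes and 2 GC boxes, and the Notch3 window held 4 GC boxes and no E box. Among windows of the same length at 27025 genes, 64.9% held an E box and 31.5% a GC box. Neither window held a CArG box, found in 1.37% of all windows, or TGGGAA, the core letters of the site of the Notch effector RBPJ, found in 20.7%, both strands being read. These are matches of letters in a short window and say nothing on binding.

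Among the contractile genes, Acta2 encodes the smooth muscle actin that fills vascular smooth muscle cells (chromosome 19, 34241091 to 34255336, minus strand, mm10). It had 52.9, 75.0, 79.1 and 84.8 CPM in KO libraries 512, 513, 515 and 516, against 67.0, 56.1, 68.4 and 56.3 CPM in control libraries 511, 514, 517 and 518. KO 513, 515 and 516 lay above every control library and KO 512 lay below all of them. The means were 72.9 ± 13.9 CPM in KO and 62.0 ± 6.68 CPM in control tissue (SD, n = 4 each). The log2 fold change of 0.24 did not pass (SE 0.143, 95% interval -0.09 to 0.56, edgeR adjusted p = 0.229). Without KO library 512 Acta2 passed, with a log2 fold change of 0.36 (edgeR adjusted p = 0.0275).

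Tagln encodes transgelin, an actin-binding protein of the smooth muscle cytoskeleton (chromosome 9, 45929628 to 45936058, minus strand). Its level was 32.2, 35.5, 41.9 and 43.1 CPM in KO libraries and 37.0, 35.2, 39.7 and 34.0 CPM in control libraries, in the order of library numbers above. The groups overlapped throughout, and the log2 fold change was 0.07 (95% interval -0.17 to 0.30, edgeR adjusted p = 0.657). That interval holds folds of 0.889 to 1.23. In GENCODE M21, 67.9% of Tagln exon bases lie opposite exons of Pcsk7 and Gm48529, and the counting without strand could not separate them, so the Tagln level is uncertain.

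Myh11, the myosin heavy chain of smooth muscle and its most specific marker (chromosome 16, 14194527 to 14291408, minus strand), was measured with little spread. KO libraries held 55.6, 61.3, 68.2 and 62.3 CPM, and control libraries 53.6, 55.1, 59.1 and 56.9 CPM. KO 513, 515 and 516 were above all controls, and KO 512 lay within the control range. The log2 fold change was 0.14 (SE 0.0745, 95% interval -0.03 to 0.31, edgeR adjusted p = 0.175), so a rise above 1.24-fold or a fall below 0.980-fold lay outside the interval. It was higher with upper quartile factors (0.24, edgeR adjusted p = 0.0416) and with library sizes alone (0.34, 0.0134).

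Cnn1 encodes calponin, which regulates actomyosin in differentiated smooth muscle (chromosome 9, 22099253 to 22109221, plus strand). It was the lowest member, with 53 to 162 counts in KO and 82 to 101 counts in control libraries. The level was 2.125, 3.23, 4.73 and 6.06 CPM in KO libraries and 3.94, 3.27, 4.40 and 3.62 CPM in control libraries. KO tissue spread on both sides of the controls, from KO 512 and 513 below to KO 515 and 516 above. The coefficient of variation was 42.6% in KO and 12.6% in control tissue, and the 95% interval of the log2 fold change ran from -0.57 to 0.74 around 0.09 (edgeR adjusted p = 0.841). Changes of Cnn1 within that range could not be told from the spread between libraries, and its sign turned without KO library 516 (log2 fold change -0.18).

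Des encodes desmin, the intermediate filament of all muscle types, so it is shared by smooth, cardiac and skeletal muscle (chromosome 1, 75360344 to 75367715, plus strand). It was the most abundant member, with 686, 433, 395 and 294 CPM in KO libraries, against 235, 106, 178 and 358 CPM in control libraries. KO 512, 513 and 515 were above all controls, while KO 516 lay below control 518. The means were 452 ± 167 CPM in KO and 219 ± 106 CPM in control tissue (SD, n = 4 each). The log2 fold change was 1.04 (SE 0.365, 95% interval 0.22 to 1.87), and the edgeR adjusted p of 0.0522 missed the threshold. DESeq2 (adjusted p = 0.0478) and limma-voom with sample weights (adjusted p = 0.0163) called it higher, as did edgeR without control library 518 (1.41, adjusted p = 0.0166) and without KO library 516 (1.20, adjusted p = 0.04999). In the authors' deposited table Des is 2.04-fold higher in KO (authors' FDR 0.00678), and it is the 1 member under 0.05 there, where 17.4% of all transcript rows are. That table gives Notch3 an authors' FDR of 0.147. Its columns name the control first, but its fold is KO over control. For Des, 5.86% of exon bases lie opposite Gm15179.

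Des moved with skeletal muscle genes across the libraries. The summed level of 15 skeletal muscle genes, among them Acta1, Ckm and Myh4, was 19093, 12664, 11339 and 8768 CPM in KO libraries 512, 513, 515 and 516, against 5252, 324, 4350 and 7687 CPM in control libraries 511, 514, 517 and 518. The order of the libraries by Des and by this sum was the same within the KO group and within the control group. All 15 genes had log2 fold changes above 0, from 1.27 to 2.39, and 2 passed the threshold by edgeR (8 at an unadjusted p under 0.05), while limma-voom with sample weights called all 15 higher, with a median of 2.45. Without control 514 the count was 14, and without any 1 other library it was 0 to 2. With a skeletal muscle score as a covariate the log2 fold change of Des was 0.29 (edgeR adjusted p = 0.461), against 1.04 without it. The score, the mean log2 CPM of these genes, was 8.64 to 9.77 in KO and 3.87 to 8.38 in control libraries. As the groups did not overlap in it, skeletal muscle and the knock-out cannot be fully told apart by that fit. The same limit holds for every other gene fitted with the score. Pdgfrb, Mcam and Notch3 moved the other way with the covariate. Their log2 fold changes were 0.35 (edgeR adjusted p = 0.153), 0.34 (0.0669) and 0.42 (0.0387), against 0.19, 0.14 and 0.31 without it. Rgs5 had 0.15 and Abcc9 0.12 with the covariate, against 0.16 and 0.14 without it. Tagln had 0.09 and Cnn1 0.11, against 0.07 and 0.09. Acta2 had 0.22 and Myh11 0.14 with the covariate, and 0.24 and 0.14 without it. In control 514, where the skeletal genes were lowest, Des still had 106 CPM.

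The other contractile genes ran differently. Summed over Acta2, Tagln, Myh11 and Cnn1, KO libraries held 143, 175, 194 and 196 CPM in the order of their numbers, and control libraries 162, 150, 172 and 151 CPM. In the KO group this sum was lowest in library 512, which had the most skeletal muscle RNA, and highest in library 516, which had the least. In the control group no such reverse order was seen. Des was 13.0 times Acta2 in KO 512 and 3.47 times in KO 516, against 1.90 times in control 514 and 6.36 times in control 518. These ratios within a library do not depend on the scaling between libraries.

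**Figure D2:**
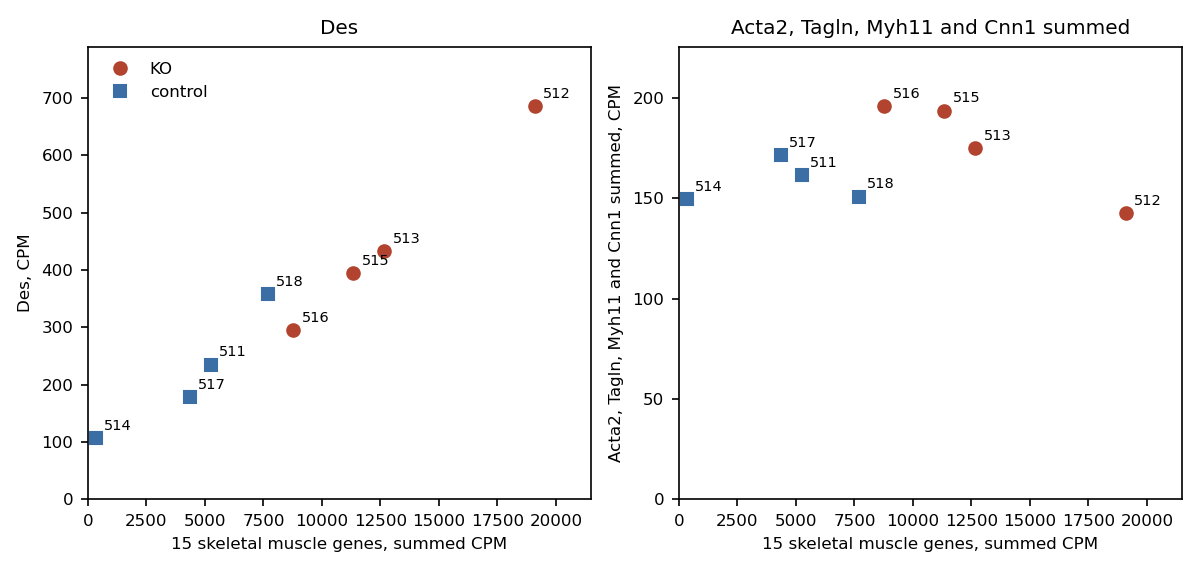
Des (left) and the sum of Acta2, Tagln, Myh11 and Cnn1 (right) against the summed CPM of 15 skeletal muscle genes, 1 point per library with its number, KO as circles and control as squares, linear axes from 0. Des is lowest in control 514 and highest in KO 512, as is the skeletal sum, while the other contractile genes stay between 143 and 196 CPM.

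Among the pericyte and mural genes, Notch3 encodes the Notch receptor of vascular smooth muscle and pericytes (chromosome 17, 32120893 to 32166852, minus strand). It had 112, 125, 134 and 127 CPM in KO libraries, against 106, 107, 106 and 82.5 CPM in control libraries. Every KO library was above every control library, although KO 512 and control 514 were close. The means were 125 ± 9.12 CPM in KO and 100.3 ± 11.9 CPM in control tissue (SD, n = 4 each), a 1.24-fold rise (log2 fold change 0.31, SE 0.0977, 95% interval 0.09 to 0.53, edgeR adjusted p = 0.0355). The call was lost without KO library 513 (0.31, edgeR adjusted p = 0.0786), KO 515 (0.27, 0.0966), KO 516 (0.30, 0.0818) or control 517 (0.34, 0.0506). It held without each of the other 4 libraries and under all 8 other settings tried, with log2 fold changes of 0.25 to 0.51. Of its exon bases 6.03% lie opposite Gm17276.

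Pdgfrb encodes the receptor for platelet-derived growth factor B (chromosome 18, 61045150 to 61085067, plus strand). Its level was even across KO libraries, at 103, 103, 107 and 101 CPM, and was 98.8, 101, 97.5 and 64.7 CPM in control libraries. Control 518 stood far below the rest, KO 512, 513 and 515 were above all controls, and KO 516 lay just below control 514. The log2 fold change of 0.19 (95% interval -0.10 to 0.49, edgeR adjusted p = 0.273) was 0.09 without control 518. Control 518 was also the lowest control for Tagln, Notch3, Rgs5, Mcam and Abcc9.

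Rgs5 encodes a regulator of G protein signalling that marks pericytes (chromosome 1, 169655501 to 169693526, plus strand). It held 139, 203, 168 and 135 CPM in KO libraries and 128, 138, 189 and 125 CPM in control libraries. The groups covered nearly the same range, and the log2 fold change was 0.16 (95% interval -0.22 to 0.54, edgeR adjusted p = 0.491). KO 513 and control 517 were the highest of their groups.

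Mcam, which encodes the adhesion molecule CD146 of pericytes, smooth muscle and some endothelium (chromosome 9, 44134658 to 44142726, plus strand), had 122, 121, 128 and 137 CPM in KO libraries and 126, 137, 99.6 and 98.5 CPM in control libraries. No KO library was above the highest control. Its log2 fold change was 0.14 (95% interval -0.12 to 0.40, edgeR adjusted p = 0.372).

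Abcc9 encodes SUR2, the regulatory subunit of the vascular ATP-sensitive potassium channel (chromosome 6, 142587862 to 142702274, minus strand). KO libraries held 94.2, 75.0, 67.5 and 64.7 CPM, and control libraries 71.3, 68.6, 74.6 and 58.2 CPM. KO 512 was the highest of all libraries, and without it the log2 fold change of 0.14 (edgeR adjusted p = 0.408) was 0.02. SUR2 is also made in skeletal muscle, and the order of the KO libraries by Abcc9 was that of their skeletal muscle sum, while the control order was not. With the skeletal muscle score as a covariate the log2 fold change of Abcc9 was 0.12 (edgeR adjusted p = 0.673). A skeletal muscle source of Abcc9 was not tested. Kcnj8, which encodes the pore of the same channel in pericytes, had 35.7 ± 5.48 CPM in KO and 36.1 ± 8.32 CPM in control tissue (SD, n = 4 each; log2 fold change -0.01, edgeR adjusted p = 0.961).

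**Figure D3:**
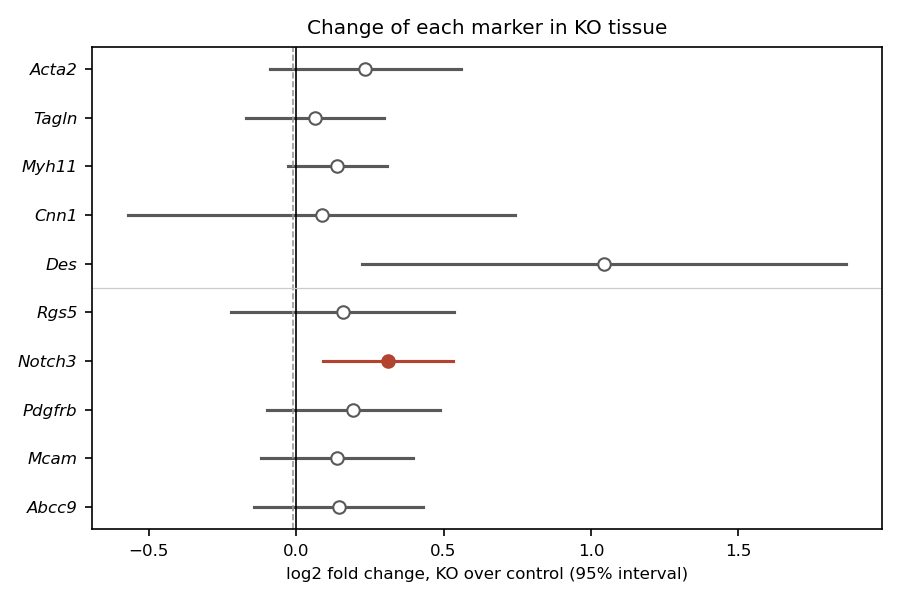
Log2 fold change of each marker, KO over control, with its 95% interval from edgeR. The filled point is Notch3, which passed an adjusted p of 0.05, open points did not pass, and the dashed line is the median of all tested genes at -0.01. Des has the largest change and the widest interval, 0.22 to 1.87.

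Per length of transcript, the markers kept the same order in both groups. In KO and in control tissue the order by mean CPM per kilobase was Des, Rgs5, Mcam, Acta2, Tagln, Pdgfrb, Notch3, Abcc9, Myh11 and Cnn1. Des had 212 ± 78.3 CPM per kilobase in KO and 103 ± 49.98 in control tissue, Rgs5 had 89.9 ± 17.5 and 80.6 ± 16.6, and Cnn1 had 2.05 ± 0.872 and 1.93 ± 0.244 (SD, n = 4 each, KO before control). In KO tissue the ranges of neighbours overlapped for Mcam with Acta2 and for Abcc9 with Myh11. In control tissue those pairs overlapped too, as did Des with Rgs5 and Pdgfrb with Notch3. The level per kilobase of Des was above that of 97.1% of tested genes, that of Rgs5 above 94.2% and that of Cnn1 above 24.7%.

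Ratios between marker sets overlapped between the groups. The summed level of the 5 mural members was 0.396, 0.388, 0.364 and 0.362 of the sum of 12 endothelial markers in KO libraries 512, 513, 515 and 516, and 0.388, 0.371, 0.365 and 0.314 of it in control libraries 511, 514, 517 and 518. The groups overlapped. The sum of Acta2, Tagln, Myh11 and Cnn1 was 0.299 ± 0.0431 of the mural sum in KO and 0.308 ± 0.0331 in control tissue (SD, n = 4 each). The endothelial sum itself was 1442 to 1664 CPM in KO and 1365 to 1552 CPM in control libraries. Of its 12 genes 3 were higher and 0 lower by edgeR (4 and 2 at an unadjusted p under 0.05). Over all tested genes these shares were 15.4% and 18.9% by adjusted p.

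By root mean square difference of centred log2 CPM over the 8 libraries, the genes most like the mean profile of the 5 mural members, out of 10740 genes with at least 5 CPM, were Uggt2 (0.056), Fam76a (0.0566) and Mtmr4 (0.0587). The members themselves lay 0.0849 (Pdgfrb) to 0.199 (Rgs5) from their own mean profile. For the 5 contractile members the nearest genes were Irak4 (0.0727), Casp8 (0.0778) and Pcbp3 (0.0807), and the members lay 0.139 (Myh11) to 0.669 (Des) away.

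A wider list of contractile genes of smooth muscle was counted beside the members. Of 26 other genes tested, 9 were higher and 1 lower by edgeR (15.4% and 18.9% over all tested genes), with a median log2 fold change of 0.35. Synpo2, an actin-bundling protein of smooth and striated muscle, had 79.5, 56.5, 47.0 and 42.5 CPM in KO libraries and 26.1, 9.62, 14.6 and 26.6 CPM in control libraries (log2 fold change 1.55, SE 0.328, edgeR adjusted p = 0.00713). Lmod1, leiomodin of smooth muscle, which nucleates actin, had 17.7, 14.6, 11.9 and 12.1 CPM in KO libraries and 8.26, 5.83, 7.97 and 8.41 CPM in control libraries (log2 fold change 0.88, SE 0.169, edgeR adjusted p = 0.00445). Both genes were highest in KO 512 and lowest in control 514, as was the skeletal muscle sum.

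Flna, filamin A, a widely expressed actin crosslinker, rose by 0.35 (edgeR adjusted p = 0.0144). The other 6 genes called higher, chosen for naming with their values in view, were the tropomyosin Tpm1 (log2 fold change 1.35, edgeR adjusted p = 0.0349), the small heat shock protein gene Hspb6 (1.53, 0.0201), the potassium channel gene Kcnma1 (1.46, 0.0495), Pdlim7 (0.60, 0.0237), smoothelin, Smtn (0.53, 0.0435), and alpha-actinin, Actn1 (0.35, 0.0441). Among genes that did not pass were the tropomyosin Tpm2 (1.74, 0.0528), the myosin light chain kinase Mylk (-0.08), its substrate Myl9 (-0.09) and caldesmon, Cald1 (0.23). With the skeletal muscle score as a covariate 5 of the 26 were higher and 1 lower. Synpo2 (0.86, edgeR adjusted p = 0.0354), Lmod1 (0.57, 0.0436), Smtn (0.85, 0.0132) and Tpm1 (0.35, 0.0262) were higher there. So was the myosin light chain gene Myl6 (0.65, 0.0413), which did not pass without the score (0.41, 0.0815). Flna (0.29, 0.105), Actn1 (0.38, 0.117), Hspb6 (0.61, 0.119), Pdlim7 (0.28, 0.225) and Kcnma1 (0.20, 0.887) did not pass. With library sizes alone 15 were higher and 1 lower, with upper quartile factors 14 and 1, and with 1 library left out 4 to 10 were higher (4 without KO 513, KO 515 or control 517, and 5 without KO 516).

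Of 27 other mural genes, 4 were higher and 1 lower by edgeR (15.4% and 18.9% over all tested genes), with a median log2 fold change of 0.18. The count higher was thus near the share over all genes. Without KO 513, KO 515, KO 516 or control 517 the count higher was 1, and with upper quartile factors it was 7 and with library sizes alone 9. Cspg4, which encodes the pericyte proteoglycan NG2, fell. It had 90.3, 107, 129 and 120 CPM in KO libraries, against 214, 189, 171 and 177 CPM in control libraries, with no overlap (log2 fold change -0.75, SE 0.119, edgeR adjusted p = 0.002). This fall held in all 16 alternatives, with log2 fold changes of -0.83 to -0.55. Pdgfrb, Rgs5 and Abcc9, markers of the same cells, had log2 fold changes of 0.19, 0.16 and 0.14. Of the 27 genes, 18 had log2 fold changes above 0. Below 0 without passing were, among others, Steap4 (-0.63, edgeR adjusted p = 0.156), Higd1b (-0.33, 0.264) and Vtn (-0.20, 0.374), named after their values were seen. The summed level of the 27 genes was 1166 to 1480 CPM in KO and 1421 to 1617 CPM in control libraries, which overlapped.

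Anpep, an aminopeptidase of pericytes and other cells, rose by 0.37 (edgeR adjusted p = 0.0124; 0.114 with the skeletal muscle score as a covariate), and Art3, an ADP-ribosyltransferase homologue, rose by 0.38 (edgeR adjusted p = 0.0361), a call lost without any of 6 single libraries. Heyl, a transcription factor induced by Notch3 in smooth muscle, had 58.8, 71.1, 70.8 and 71.9 CPM in KO libraries and 45.5, 54.9, 36.5 and 22.2 CPM in control libraries. All KO libraries were above all controls (log2 fold change 0.78, SE 0.231, edgeR adjusted p = 0.0295), and control 518 was the lowest, as for Notch3. The call of Heyl was lost without KO 513, KO 515, KO 516 or control 517 (edgeR adjusted p up to 0.0701). Without each of these libraries the count of other mural genes called higher also fell to 1, so the loss was not particular to Heyl. A link between Heyl and Notch3 was not tested. With the skeletal muscle score as a covariate the log2 fold change of Heyl was 1.23 (edgeR adjusted p = 0.00771).

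**Figure D4:**
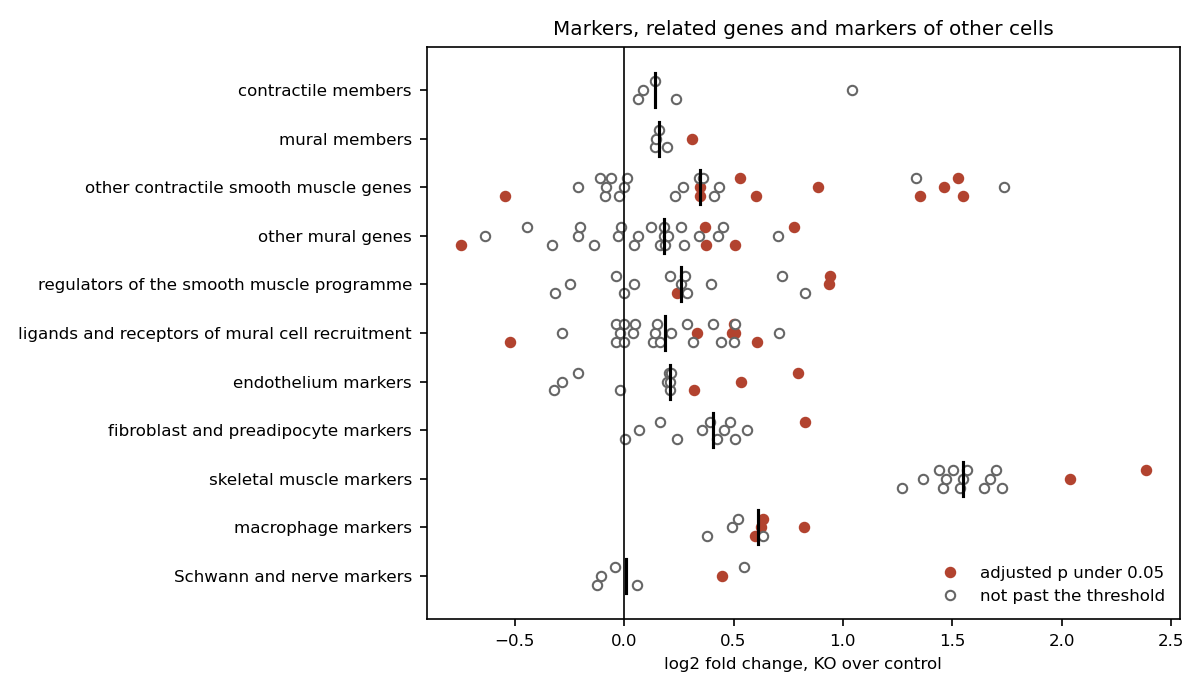
Log2 fold change, KO over control, of each tested gene in the marker lists, the related lists and markers of other cells. The brown adipocyte markers, all below 0, are not shown. Filled points passed an edgeR adjusted p of 0.05, and black bars are list medians. The members lie near 0 except Des at 1.04, and the skeletal muscle markers lie between 1.27 and 2.39.

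Of 20 regulators of the smooth muscle programme, 15 had enough counts to be tested. By edgeR 3 were higher and 0 lower, where 15.4% and 18.9% of all tested genes were. At an unadjusted p under 0.05 the counts were 4 and 1, and DESeq2 and limma-voom called 0 lower. The median log2 fold change of the regulators was 0.26. The count higher was 1 without KO 515 or KO 516 and 5 without control 518. It was 5 with upper quartile factors, 6 with library sizes alone and 1 with the skeletal muscle score as a covariate. Myocd, myocardin itself, was not tested, at 0.224 to 0.631 CPM in KO and 0.176 to 0.452 CPM in control libraries. Srf, its partner, had 48.0 ± 7.08 CPM in KO and 39.5 ± 7.92 CPM in control tissue (SD, n = 4 each) and did not pass (edgeR adjusted p = 0.18). Mef2c, a factor of striated and smooth muscle and of endothelium, rose by 0.94 (edgeR adjusted p = 0.0107), but did not pass with the skeletal muscle score as a covariate (0.50, 0.0862). Tbx2, a T-box repressor, rose by 0.94 (edgeR adjusted p = 0.0204), but did not pass without KO 515, KO 516 or control 517, and Rbpj, the DNA-binding partner of all Notch receptors, rose by 0.24 (edgeR adjusted p = 0.0357), a call lost in 8 of 16 alternatives.

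Ligands and receptors that recruit mural cells were measured in 26 genes, with a median log2 fold change of 0.19. Of these, 5 were higher and 1 lower by edgeR (15.4% and 18.9% over all tested genes). The count higher was 1 without KO 513 or KO 516, 2 without KO 515 and 3 without control 517. It was 8 with upper quartile factors and 11 with library sizes alone, both with 0 lower, and 3 with the skeletal muscle score as a covariate. Pdgfb, the endothelial ligand of the Pdgfrb receptor, had 39.1, 66.0, 69.1 and 53.8 CPM in KO libraries and 48.3, 46.7, 47.6 and 40.7 CPM in control libraries, and did not pass (log2 fold change 0.31, 95% interval -0.05 to 0.68, edgeR adjusted p = 0.159). Pdgfd, another ligand of that receptor, rose by 0.61, to 35.6 ± 4.09 CPM in KO tissue, against 23.4 ± 5.84 CPM in control tissue (SD, n = 4 each, edgeR adjusted p = 0.0233), and did not pass without KO 513, KO 516 or control 517. Tgfb1 and Tgfb3, growth factors that promote smooth muscle differentiation, rose by 0.51 (edgeR adjusted p = 0.0295) and 0.50 (0.0151), and neither passed with the skeletal muscle score as a covariate, where the log2 fold changes were 0.53 (0.0993; SE 0.209, against 0.1505 without it) and 0.40 (0.122).

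Of the Notch receptors beside Notch3, Notch2 fell by 0.52 on the log2 scale, with 43.1, 37.6, 40.5 and 34.7 CPM in KO libraries and 45.9, 45.8, 56.5 and 75.6 CPM in control libraries (edgeR adjusted p = 0.0326), and with upper quartile factors, with library sizes alone and without any of 5 single libraries it did not pass. Named after their values were seen, Notch1 was higher (0.33, edgeR adjusted p = 0.0356), Notch4 did not pass (0.29, 0.236), and neither did the ligands Jag1 (-0.04, 0.821) and Dll4 (0.05, 0.838) or the targets Hey1 (0.29, 0.212) and Hey2 (0.83, 0.06). Differences between these genes were not tested.

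Markers of other cells were counted as well, in a tissue where 15.4% of all tested genes were higher and 18.9% lower. Of 12 fibroblast and preadipocyte markers 1 was higher and 0 lower by edgeR (3 and 0 at an unadjusted p under 0.05), and their summed level was 3580 to 5333 CPM in KO and 3064 to 3798 CPM in control libraries, which overlapped. Of 8 macrophage markers 4 were higher, with sums of 190 to 293 CPM in KO and 107 to 201 CPM in control libraries, which overlapped, and the count higher was 1 to 2 without KO 513, 515, 516 or control 518. Of 6 Schwann cell and nerve markers 1 was higher, with sums of 260 to 285 CPM in KO and 205 to 222 CPM in control libraries. Their median log2 fold change was 0.007, and only 3 of the 6 were above 0, so they did not rise together. No marker in these lists was at 0 in every library. Acta2 and Tagln are also made by activated fibroblasts, and Pdgfrb by fibroblasts. The part of these cells in the changes was not tested. Skeletal muscle was followed only by the order of libraries and by the score, which was fitted for all tested genes. As the groups did not overlap in the score, the part of skeletal muscle cannot be fully told apart from that of the knock-out.

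**Figure D5:**
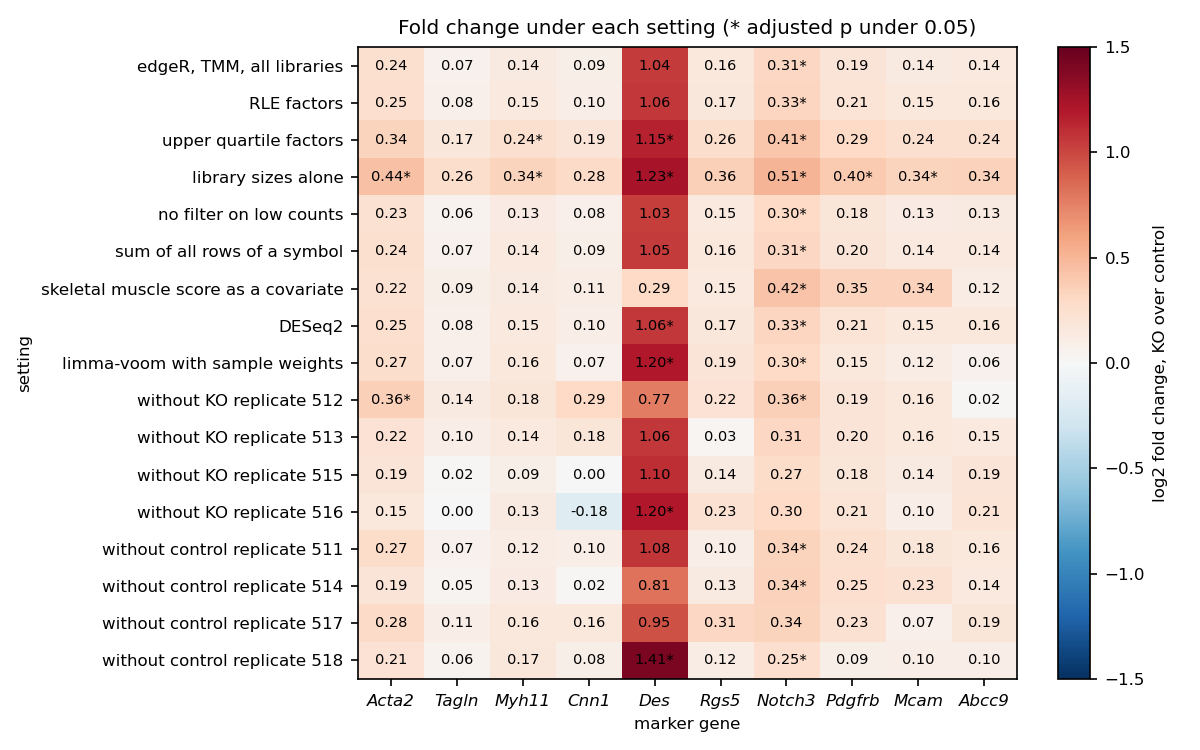
Log2 fold change of each marker, KO over control, under each setting, coloured from -1.5 (blue) to 1.5 (red), with an asterisk for an adjusted p under 0.05. All values are above 0 except Cnn1 at -0.18 without KO library 516, and Notch3 loses its asterisk in 4 rows.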

How the data were processed

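The submitters' processing notes list mm10, TopHat2 version 2, HOMER and edgeR, without their order. The estimated counts deposited by the authors came from HOMER's analyzeRepeats.pl over exons of RefSeq models on both strands without adjustment, per the file headers. They are multiples of 0.5, 36.9% are not whole, and they were rounded. The same table holds transcript lengths. The authors' deposited table of their own comparison holds a signal (counts scaled to equal totals), a fold (ratio), p-values with FDR, log2 fold changes and log2 CPM, per the file headers. Rows without a symbol (829 of 30521, at most 0.0824% of counts) were left out, and 1 row was kept for each of the 3969 symbols with several, which left 23683936 to 28570627 counts per library.

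Genes passed filterByExpr (minimum count 10) and went into the two-sided quasi-likelihood test of edgeR 4.0.16 (R 4.3.3) with TMM factors (1.05 to 1.10 in KO, 0.898 to 0.961 in control libraries), Benjamini-Hochberg adjustment over all 14178 genes and a threshold of 0.05. The SE is the log2 fold change over the square root of F. The test was tested on simulated data. Replicates of a group differed by more than sampling noise (lowest chi-square per degree of freedom 12.4). Alternatives were other scalings, no filter, summed rows, a skeletal muscle covariate, DESeq2 1.42.0, limma-voom (limma 3.58.1) and each library left out. Members and lists were chosen with earlier results of these data known; the text names all members and up to 4 called genes of each related list with the smallest p, except 1 gene that is not reported here. Promoter sequences are from RefSeq (GRCm38.p6). All columns of per-sample values were matched to a library.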

Additional observations from a re-analysis of the deposited data

Results flagged for a closer look

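Control library 518 stood apart from the other 3 controls for a pair of members. Notch3 had 82.5 CPM there, against 105.8 to 107 CPM in the other controls, and Pdgfrb had 64.7 CPM, against 97.5 to 101 CPM. The gap to the nearest control was 0.942 of the control range for Notch3 and 0.906 of it for Pdgfrb, above Dixon's 95% limit for 4 samples. Chance gives about 1 such case in 20 groups, and 22 groups were examined. Without control 518 the log2 fold change was 0.25 for Notch3 (edgeR adjusted p = 0.0264) and 0.09 for Pdgfrb (0.252).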

How the results depend on the processing

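Of the 10 members, 1 was higher and 0 lower with edgeR and TMM factors. The count higher was 3 with upper quartile factors, 6 with library sizes alone, 2 with DESeq2 and 2 with limma-voom, and 0 to 2 with 1 library left out (0 without KO 513, KO 515 or control 517, 2 without KO 512 or control 518); the count lower was 0 in all 16 alternatives. The members' median log2 fold change of 0.15 was 0.251 with upper quartile factors and 0.351 with library sizes alone. Over all genes, 2189 were higher and 2682 lower. With upper quartile factors 1625 were lower, with library sizes alone 4077 were higher and 930 lower, and with the skeletal muscle score as a covariate 1405 were higher. Among members the sign turned only for Cnn1 without KO replicate 516 (log2 fold change -0.178, with 0.295 without KO replicate 512 as the highest value), and the cause was not tested. Tagln, Cnn1, Rgs5 and Abcc9 passed the threshold in none of the 16 alternatives, with edgeR, DESeq2 or limma-voom. No paired analysis was possible because the replicate numbers in the titles differ between the groups.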
